A study of Homo sapiens with 7 samples.

Results

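The expression of integrins and laminins was examined in HCT116 H2B-GFP cells exposed to bafilomycin A1. The set comprised 25 integrin genes, of which 17 code for α subunits and 8 for β subunits, and 10 laminin genes. They were selected by gene symbol, with earlier results of these data known, and all 35 were found among the 36337 gene names that the array carries. HCT116 is a near-diploid human colon carcinoma cell line, and the derivative used here expresses histone H2B fused to green fluorescent protein. Bafilomycin A1, an inhibitor of the vacuolar proton pump, was given at 10 nM for 30 h, and 4 biological replicates were each hybridised to 1 single-colour Agilent array. The 3 untreated samples of the same line were not analysed here, so the values describe the treated cells and their spread, and no difference between treated and untreated cells was computed.

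Integrins are receptors of the plasma membrane made of one α and one β subunit, and the pairing sets which ligand is bound. Laminins are secreted trimers of an α, a β and a γ chain that polymerise in the basement membrane beneath epithelia, where integrins of the laminin-binding class attach to them. In gut epithelium the α6β4 integrin anchors cells to laminin in hemidesmosomes, whereas the β2 and β7 integrins are known from leukocytes and the αIIbβ3 integrin from platelets.

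The 35 genes were covered by 52 probes of about 60 bases on 88 spots. The probe sequences are given for the genes on which the results below turn, because several of the values belong to a single probe and not to a whole transcript. Positions are those of GRCh37, the build of the scanner files, and each probe is written 5′ to 3′ on the strand of its gene. Capitals mark runs of 3 or more G or C. ITGB1, the β1 subunit shared by most α subunits, was read by a probe at chr10:33200507-33200566 on the minus strand.
ITGB1: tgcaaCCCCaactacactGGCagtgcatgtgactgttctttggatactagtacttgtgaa
The probe of ITGB6, the epithelial subunit that remained at background, crosses an intron at chr2:160958330-160964233 on the minus strand.
ITGB6: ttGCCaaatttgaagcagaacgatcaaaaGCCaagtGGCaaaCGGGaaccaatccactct
The probe of LAMA2, whose level differed most between arrays among the detected genes with 1 probe, also crosses an intron, at chr6:129833622-129835560 on the plus strand.
LAMA2: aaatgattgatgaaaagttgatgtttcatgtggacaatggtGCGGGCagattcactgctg
One of the probes of LAMA1, the only laminin gene at background, lies across an intron at chr18:6956742-6958512 on the minus strand.
LAMA1: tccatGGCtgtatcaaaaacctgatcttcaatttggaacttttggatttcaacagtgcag
The probe of LAMA5 nearer the 3′ end, at chr20:60885302-60885361 on the minus strand, has the highest GC content of the detected probes, at 66.7%.
LAMA5: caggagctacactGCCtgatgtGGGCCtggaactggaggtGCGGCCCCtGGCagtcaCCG
The probe of LAMB2 nearer the 5′ end, at chr3:49159144-49159203 on the minus strand, deviated from its neighbour on replicate 3.
LAMB2: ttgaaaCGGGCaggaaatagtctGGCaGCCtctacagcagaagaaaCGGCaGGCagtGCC
ITGB2, the β subunit of the leukocyte integrins, has 3 probes that gave different answers. Only the first 30 of their 60 bases are printed. The RefSeq mRNA probe lies at chr21:46305926-46305985, the probe of the Ensembl transcript ENST00000545414 crosses an intron at chr21:46321625-46326865, and the probe of ENST00000397846 lies at chr21:46327902-46327961, all on the minus strand.
ITGB2, RefSeq mRNA: GCCaatttatttacatttaaacttgtcagg
ITGB2, ENST00000545414: tgtCCCCacaaaaagtgaCGCtttacctgc
ITGB2, ENST00000397846: tttttCCCtCCCCtttctggaggttttcag

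Each array held 58717 non-control spots, and between 55.6% and 60.4% of them were flagged as well above background by the scanner software. Replicate 3 held 2249 outlying spots against 514 to 725 on the others, and such spots were left out. The file headers place the 4 arrays on a single slide read in the same scan, which leaves no slide or scan batch to compare. The level of a gene was the log2 background-subtracted signal minus the median of the array, taken as the median over the probes of that gene. That median was taken over probes with a signal above 0, so a level of 0 stands for the median of these probes. Levels of different probes are not compared with each other. A gene was called detected when at least 1 probe was well above background on all 4 arrays. Of the 6 epithelial markers 5 were detected (EPCAM, CDH1, KRT8, KRT18 and KRT19), with a summed signal of 530373 to 635060, and VIL1, an actin bundler of brush borders, was well above background on no array.

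Detected in all 4 arrays were 28 of the 35 genes (80%). Over all gene names of the array the share was 52.5%, and over names that are protein-coding RefSeq symbols it was 70.9%. The 5 of 6 epithelial markers (83.3%) may be read against the same shares. The detected set held 19 of 25 integrins and 9 of 10 laminins. Of the 9 subunits of epithelial integrins 8 were detected, with ITGB6 as the exception, and of the 9 subunits of leukocyte and platelet integrins 6 were detected. ITGA4, ITGAL and ITGB3 were the exceptions in the latter group. The difference between 8 and 6 of 9 was not tested, and both counts may be read against the shares over the array. The remaining 7 integrins gave 5 detected genes.

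**Figure D1:**
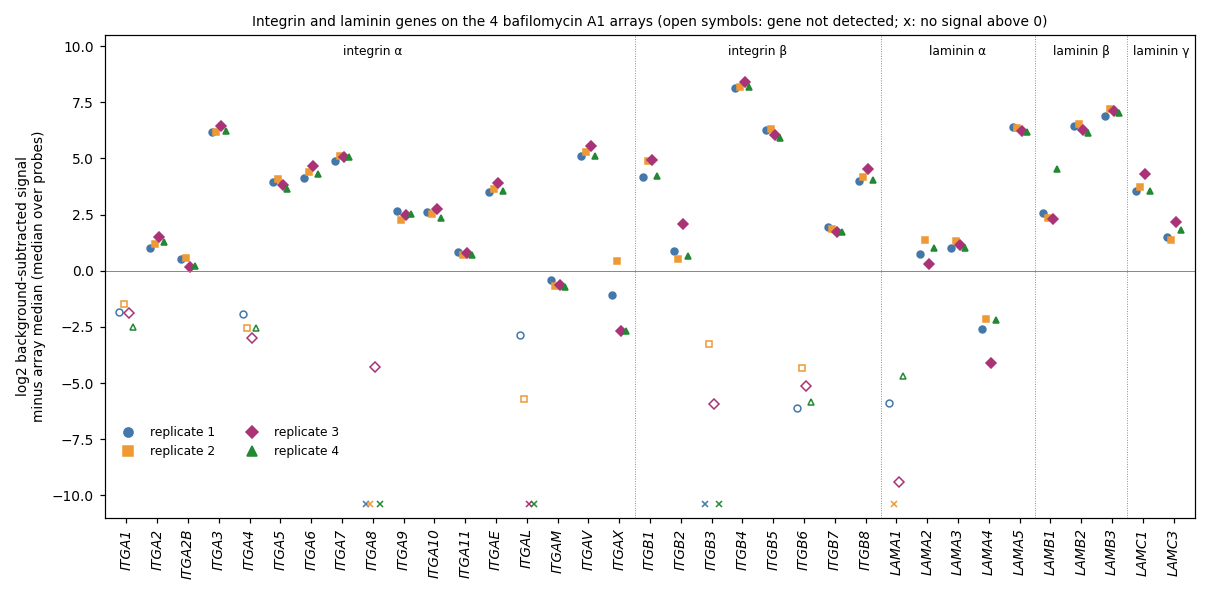
Level of the 35 integrin and laminin genes (log2 background-subtracted signal minus the array median, vertical axis) on each of the 4 bafilomycin A1 arrays, with genes on the horizontal axis. Filled symbols are the 28 detected genes and open symbols the 7 others, and crosses at the lower edge mark arrays without a signal above 0; the replicates of ITGB4 lie between 8.16 and 8.42, while those of ITGAX are spread from -2.68 to 0.45.

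Among the laminin-binding α subunits all 3 were detected. ITGA3, whose α3 chain pairs with β1 in epithelial adhesion, had levels of 6.19, 6.16, 6.43 and 6.24 on replicates 1 to 4 (mean 6.26, SD 0.12, n = 4). ITGA6, the partner of ITGB4 in hemidesmosomes, had levels of 4.14, 4.41, 4.66 and 4.29 (SD 0.22), and its highest and lowest arrays lay 1.43-fold apart. ITGA7, known from muscle as a laminin receptor with β1, had levels of 4.87, 5.13, 5.09 and 5.05 (SD 0.11). In both epithelial genes replicate 3 was the highest array, whereas in ITGA7 it was replicate 2. ITGA7 was thus measured well above background in a colon line. There 2 of 6 markers of fibroblasts and muscle, COL1A1 and ACTA2, were detected (33.3%, against 52.5% of all gene names). DES, the desmin gene of muscle, gave signals of 762, 737 and 636 on replicates 2 to 4 and was well above background there. Its single spot on replicate 1 read 911 and was left out as outlying, and with outlying spots kept 3 of the 6 markers were detected, at a summed signal of 1317 to 1805. How these markers relate to the ITGA7 signal was not tested.

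Of the β subunits of epithelial integrins, ITGB1, ITGB4, ITGB5 and ITGB8 were detected and ITGB6, an αV partner induced in wounded epithelium, was not, with signals of 1.10 to 3.43. ITGB4, the β subunit of hemidesmosomes with its long cytoplasmic tail, had levels of 8.16, 8.19, 8.42 and 8.18 (SD 0.12). Replicates 1, 2 and 4 lay close together and replicate 3 stood above them. ITGB5, which pairs with αV to bind vitronectin, had levels of 6.25, 6.31, 6.06 and 5.91 (SD 0.18), and here the order was different, with replicates 3 and 4 below 1 and 2. ITGB8, the αV partner known for the activation of latent TGF-β, had levels of 4.00, 4.16, 4.54 and 4.04 (SD 0.25). The span of ITGB8 was 1.46-fold, again with replicate 3 the highest.

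ITGB1 showed the widest separation of arrays among the detected integrins read by 1 probe. Its levels were 4.19, 4.89, 4.94 and 4.24 on replicates 1 to 4 (mean 4.56, SD 0.40), so that replicates 2 and 3 lay 1.68-fold above replicate 1 at most and replicates 1 and 4 formed a lower pair. This probe is printed on each array as 10 spots, which gives the error of reading within an array. After 1, 0, 1 and 3 outlying spots were left out, the mean signal was 1407, 2074, 2150 and 1196, and the SD of the log2 signals of the spots was 0.11, 0.13, 0.10 and 0.03. With all 10 spots the SD was 0.16, 0.13, 0.13 and 0.11. In either case the ranges of spots on replicates 2 and 3 did not overlap those on replicates 1 and 4. Spots of an array share 1 culture and 1 labelling, so this spread covers the reading of the array and not the variation between cultures. ITGB1 and LAMA2 were the only detected genes of the set that spanned more than 1.4-fold under each setting in which the spans were recomputed, including the removal of any single array.

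ITGAV and ITGAM, also printed as 10 spots, were steadier. ITGAV, the α subunit of the vitronectin receptors, had levels of 5.10, 5.31, 5.57 and 5.11 (SD 0.22) with a spot SD of 0.08 to 0.12. Replicate 3 was again the highest and the span was 1.39-fold. ITGAM, the α subunit of complement receptor 3 of myeloid cells, had levels of -0.42, -0.66, -0.62 and -0.73 (SD 0.13). Its single spots differed within an array with an SD of 0.18 to 0.48. The SD of 0.13 between arrays is over means of 10 spots, so it cannot be set directly against the SD of single spots. All 10 spots of ITGAM were well above background on every array, at mean signals of 57.5, 44.3, 45.7 and 38.2.

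**Figure D2:**
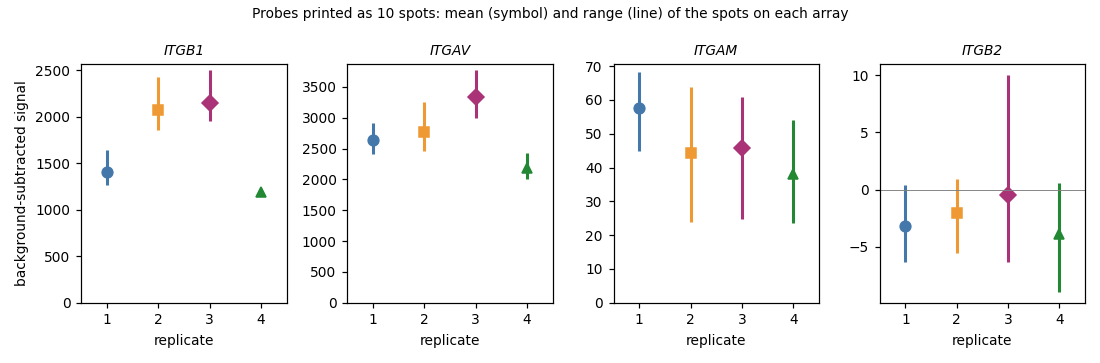
Mean background-subtracted signal (vertical axis, linear, symbols) and range over the spots that were not outlying (lines) of the 4 probes that are printed as 10 spots, on replicates 1 to 4 (horizontal axis), with a scale of its own for each gene. The ranges of ITGB1 on replicates 2 and 3 lie above those on replicates 1 and 4, and the means of ITGB2 lie between -3.87 and -0.51.

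The subunits known from collagen, fibronectin and vitronectin receptors gave mixed results. ITGA2, the collagen receptor subunit of epithelia and platelets, had levels of 1.00, 1.18, 1.52 and 1.27 (SD 0.22). ITGA10, a collagen receptor subunit of cartilage, had levels of 2.62, 2.54, 2.77 and 2.35 (SD 0.17). ITGA11, a collagen receptor subunit of fibroblasts, had levels of 0.82, 0.72, 0.81 and 0.72. Its SD of 0.06 was the lowest of all 28 detected genes. ITGA1, the fourth of this class, was well above background on 2 arrays only, with signals of 11.2 to 25.5. ITGA5, the α subunit of the fibronectin receptor, had levels of 3.94, 4.10, 3.83 and 3.64 (SD 0.19). ITGA8, which binds nephronectin in kidney, was well above background on no array, and its signal exceeded 0 on replicate 3 only, at 3.60. ITGA9, a receptor subunit for tenascin, had levels of 2.66, 2.27, 2.46 and 2.53 (SD 0.16), while the related ITGA4 was not detected. Of the 3 probes of ITGA4 only one was well above background, and that on 1 array, with signals of 17.2 to 21.0 on the 4 arrays.

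Of the leukocyte and platelet integrins, ITGAE, ITGAM, ITGAX, ITGB2, ITGB7 and ITGA2B were detected. ITGAE, which with β7 binds E-cadherin on epithelial cells, had levels of 3.49, 3.64, 3.91 and 3.57 (SD 0.18). Its β partner ITGB7 had levels of 1.93, 1.85, 1.73 and 1.74 (SD 0.10), so that both subunits were detected on all arrays. ITGA2B, the platelet subunit αIIb, had levels of 0.51, 0.58, 0.17 and 0.21 (SD 0.21). Its partner ITGB3 was well above background on no array, with signals of -4.33 to 7.27. ITGAL, the α subunit of LFA-1, was likewise at background on all arrays, with signals of -3.08 to 10.6. Of 5 leukocyte markers found by symbol on the array, 4 were detected (PTPRC, CD3E, CD79A and CORO1A). This share of 80% stood against 52.5% of all gene names and 70.9% of protein-coding symbols. CD14 was well above background on 2 arrays. The single spot of CD14 was outlying on the other two, and with such spots kept all 5 were detected, at a summed signal of 3998 to 5562. LYZ was not found by symbol. CD79A accounted for 3355 to 4828 as a single probe, and PTPRC, which marks all leukocytes, was detected through 1 of its 5 probes. Of the 4 platelet markers GP1BA was detected (25%, against the same shares), at signals of 23.2 to 33.5. GP9 gave signals of 588, 480 and 323 on replicates 1, 2 and 4. Its single spot on replicate 3, which read 197, was left out as outlying. PF4 was well above background on 3 arrays at signals of 19.2 to 28.9, and PPBP on none. With outlying spots kept, GP9 counted as detected too and the summed signal was 252 to 656. How these transcripts relate to the integrin signals was not tested, and a signal from few cells of the line cannot be told apart from a low signal in each cell.

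ITGB2 was detected through 1 of its 3 probes. The RefSeq mRNA probe, printed as 10 spots, gave mean signals of -3.18, -2.09, -0.51 and -3.87, and none of its spots was well above background on any array (0 spots). A single outlying spot of it on replicate 2 read 388 and was left out. The probe of ENST00000397846, which lies nearest the 5′ end, gave 388, 298, 297 and 268 and was well above background on all arrays. The probe of ENST00000545414 gave 50.8, 33.2 and 38.1 on replicates 1, 2 and 4 and was well above background on these 3 arrays. On replicate 3 it was left out as an outlying spot, so it did not count as detected. The level of the gene, 0.87, 0.51, 2.08 and 0.67, was accordingly highest on replicate 3, where only 1 probe remained. With the detected probe alone the levels were 2.33, 2.09, 2.08 and 2.08 (SD 0.13), and with the RefSeq mRNA probe alone ITGB2 was not detected. The detected signal of ITGB2 thus belongs to a region at the 5′ side of the gene, and which transcript it came from was not tested.

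ITGAX, the α subunit of complement receptor 4, had the highest SD of the detected genes. Its levels were -1.07, 0.45, -2.68 and -2.67 (SD 1.497). The RefSeq mRNA probe gave signals of 90.2, 95.6, 97.7 and 62.5, whereas the second probe gave 14.9, -2.74, 1.24 and 1.60 and was well above background on no array. On replicate 2 the signal below 0 has no log2 value, so the level there was that of the detected probe. With the detected probe alone the SD fell to 0.23 and the span to 1.41-fold, with replicate 3 highest and replicate 4 lowest.

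Among the laminin α chains LAMA5 and LAMA3, both known from epithelial basement membranes, were detected through each of their probes. LAMA5 had levels of 6.39, 6.34, 6.21 and 6.18 (SD 0.10), with replicates 3 and 4 lowest. LAMA3 had levels of 1.01, 1.33, 1.15 and 1.01 (SD 0.15). With the RefSeq mRNA probe alone the mean level was 3.94 in place of 6.28 for LAMA5, and 2.62 in place of 1.13 for LAMA3. Neither gene spanned more than 1.4-fold as a median of its probes, although each did so through its RefSeq mRNA probe alone, by 1.59-fold for LAMA5 and 1.501-fold for LAMA3. LAMA2, the α chain of muscle and nerve basement membranes, had levels of 0.74, 1.35, 0.29 and 1.03 (SD 0.45). The span was 2.08-fold, with replicate 2 highest and replicate 3 lowest. LAMA1, a chain of embryonic basement membranes, was at background on all arrays through both probes, with signals of -7.17 to 2.47.

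LAMA4, the α chain known from blood vessels and muscle, was detected through 1 of its 4 probes. The detected probe lies nearest the 3′ end and gave signals of 161, 119, 142 and 127 (SD 0.13 on the log2 scale). The other 3 gave signals of -4.34 to 32.1. The level of the gene was -2.58, -2.14, -4.11 and -2.21 (SD 0.92), a spread that was not present in the detected probe. As in ITGAX, the number of probes with a signal above 0 differed between arrays, being 4 on replicates 1 and 3 and 3 on replicates 2 and 4. Of 4 endothelial markers CDH5 and VWF were detected (50%, against 52.5% of all gene names and 70.9% of protein-coding symbols). PECAM1 and TEK were at background on all arrays. The summed signal of the 4 was 313 to 469, and their relation to the LAMA4 signal was not tested.

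All 3 laminin β chains were detected. LAMB3, the β chain of epithelial laminin of hemidesmosomes, had levels of 6.89, 7.22, 7.12 and 7.03 (SD 0.14). LAMB2 had levels of 6.45, 6.54, 6.29 and 6.12 (SD 0.18). LAMB1, the β chain of the most widespread laminins, had levels of 2.55, 2.36, 2.30 and 4.54 (SD 1.07), so that replicate 4 stood far above the other arrays. The third probe of LAMB1 was well above background on no array, and its signals were 5.01, 9.87, 4.01 and -2.93. On replicate 4 it had no log2 value, and the level there was set by the other probes. With both detected probes alone the levels were 4.47, 4.51, 4.66 and 4.54 (SD 0.08), and replicate 4 no longer stood apart. Each of these probes alone spread more, with an SD of 0.12 for the one nearer the 5′ end and 0.26 for the RefSeq mRNA probe. The latter spanned 1.54-fold, at a mean level of 6.67 in place of 2.94.

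Both laminin γ chains of the set were detected. LAMC1, the γ chain of most laminins, had levels of 3.53, 3.71, 4.31 and 3.56 (SD 0.36), and replicate 3 lay 1.72-fold above replicate 1. LAMC3, a γ chain of more restricted tissue distribution, had levels of 1.52, 1.39, 2.17 and 1.81 (SD 0.35). Its probe nearest the 5′ end was well above background on no array and had no signal above 0 on replicates 3 and 4. With the detected probes alone the levels of LAMC3 were 2.34, 2.24, 2.17 and 1.81, and the highest array changed from replicate 3 to replicate 1.

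**Figure D3:**
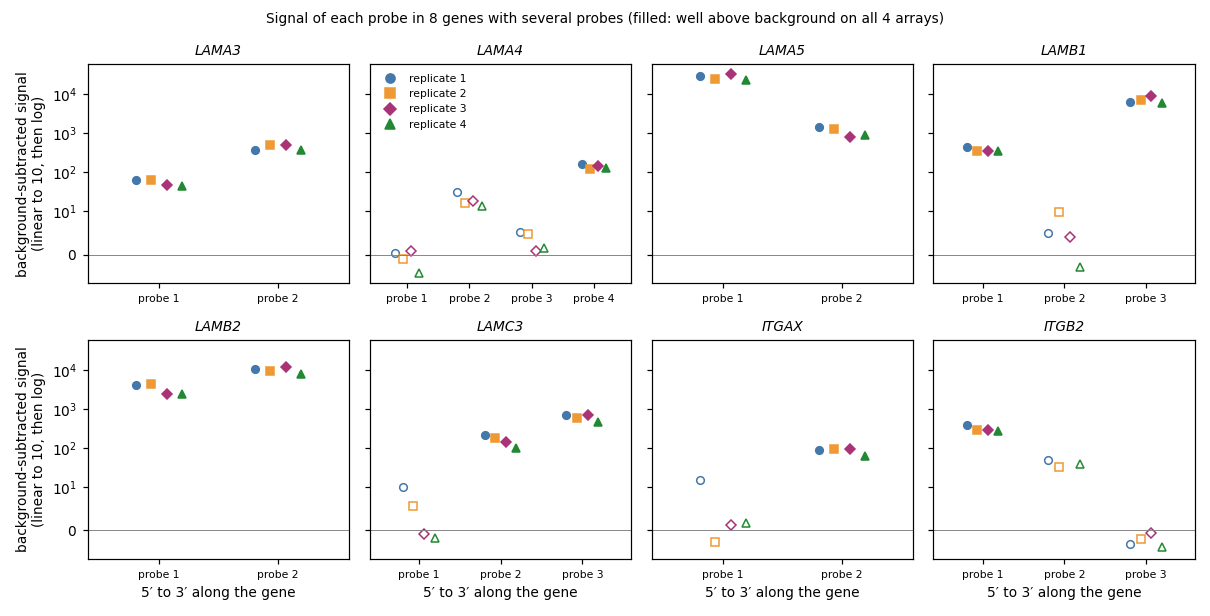
Background-subtracted signal (vertical axis, linear up to 10 and logarithmic above) of each probe of 8 genes with several probes, ordered 5′ to 3′ (horizontal axis), with a symbol for each replicate array and filled symbols for probes well above background on all 4 arrays. In LAMA4, LAMC3 and ITGAX the probe at the 3′ end is filled and the one at the 5′ end is open, and in ITGB2 it is the reverse; the scale allows replicates of 1 probe to be compared, not probes with each other.

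Of the 11 genes with several probes 9 were detected, and in 4 of these each probe was well above background on all arrays (ITGA6, LAMA3, LAMA5 and LAMB2). Where only one of the outermost probes was detected, this was the one nearer the 3′ end in ITGAX, LAMA4 and LAMC3 and the one nearer the 5′ end in ITGB2. Over all such genes of the array the 3′ probe was the detected one in 58.1%.

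Over the 28 detected genes the median SD between arrays was 0.19, against 0.21 over all detected genes. The highest array lay more than 1.4-fold above the lowest in 11 of the 28 genes (39.3%), against 46.4% of all detected genes. In 5 of these 11 genes (ITGAX, ITGB2, LAMA4, LAMB1 and LAMC3) a probe that was not detected entered the level. The other 6 were ITGA2, ITGA6, ITGB1, ITGB8, LAMA2 and LAMC1. Restricted to detected probes, ITGAX and LAMC3 remained past this span, and ITGB2, LAMA4 and LAMB1 did not. The count was then 8 of the 28 genes, against 40.1% of all detected genes in that setting. Without replicate 3, and with all probes, the count was 4 (ITGAX, ITGB1, LAMA2 and LAMB1). Over all detected genes the share was then 21.9%. By Dixon's ratio, which sets the gap of the highest or lowest array against the whole range, 1 array stood apart in 2 of the 28 genes, ITGB4 and LAMB1, against 8.48% of all detected genes.

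Replicate 3 was the highest array in 12 of the 28 genes, replicate 2 in 10, replicate 1 in 5 and replicate 4 in 1. Over all detected genes the shares were 48.5% for replicate 3, 25.3% for replicate 2, 20% for replicate 1 and 6.18% for replicate 4. The lowest array was replicate 1 in 11 genes, against 26.9% of all detected genes, and replicate 2 in 5, against 14.8%. It was replicate 3 in 6 genes and replicate 4 in 6, against 23.2% and 35.1%. The genes lowest on replicate 1 were ITGA2, ITGA6, ITGA7, ITGAE, ITGAV, ITGB1, ITGB4, ITGB8, LAMA3, LAMB3 and LAMC1.

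On replicates 1 and 3 the deviation of a probe moved with its GC content, in opposite directions. Over the 34 detected probes the Spearman correlation between GC content and the deviation from the mean of the probe over the arrays was 0.52, 0.31, -0.48 and -0.32 for replicates 1 to 4. Over all 24633 detected probes it was 0.44, 0.10, -0.44 and 0.17. These are descriptions across probes, which share their array and their mean and are not independent. The 21 probes with a GC content of 45% or less had a median deviation of -0.13 on replicate 1 and 0.18 on replicate 3, and the 13 probes above it had 0.06 and -0.05. ITGB8 and ITGA2, at 30% and 26.7% GC, deviated by 0.36 and 0.28 on replicate 3. The probe of LAMA5 at 66.7% deviated by -0.40 there. LAMA2, at 41.7%, deviated by -0.56, and the probe of ITGB1 at 45% by 0.37. The part of base composition in the levels of these genes was not tested.

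**Figure D4:**
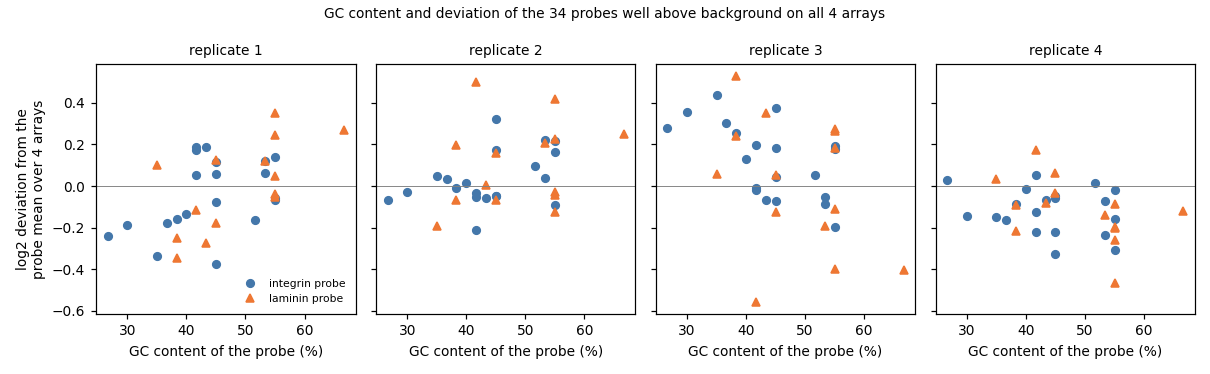
GC content of each of the 34 detected probes in percent (horizontal axis) and its log2 deviation from its own mean over the 4 arrays (vertical axis), with a panel for each replicate, circles for integrins and triangles for laminins. On replicate 1 the points run upward with GC content and on replicate 3 downward, with Spearman correlations of 0.52 and -0.48.

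In 6 genes at least a pair of probes was detected, and the outermost of these were compared on each array. On replicate 3 the probe nearer the 3′ end deviated higher than its partner in 5 of 6 genes, against 71.6% of 4102 genes with several detected probes, with LAMA5 as the exception. The differences were 0.30 in ITGA6, 0.43 in LAMA3, 0.48 in LAMB1, 0.68 in LAMB2 and 0.29 in LAMC3, and -0.66 in LAMA5. In 5 of the 6 genes both probes moved in opposite directions there, against 42.9% of these 4102 genes. On replicates 1, 2 and 4 the 3′ probe was the higher in 1, 3 and 3 of the 6 genes, against 32.4%, 35.2% and 48.1%. The probes moved in opposite directions in 4, 4 and 1 of the 6 genes on these arrays, against 38.2%, 45.6% and 25.3%. In LAMB2 both probes have a GC content of 55%, and on replicate 3 the 5′ probe deviated by -0.40 and the 3′ probe by 0.28. In LAMA5 the 5′ probe, at 55%, deviated by 0.26 and the 3′ probe, at 66.7%, by -0.40. The order of replicates in a laminin level thus differed with the probe that was read.

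**Figure D5:**
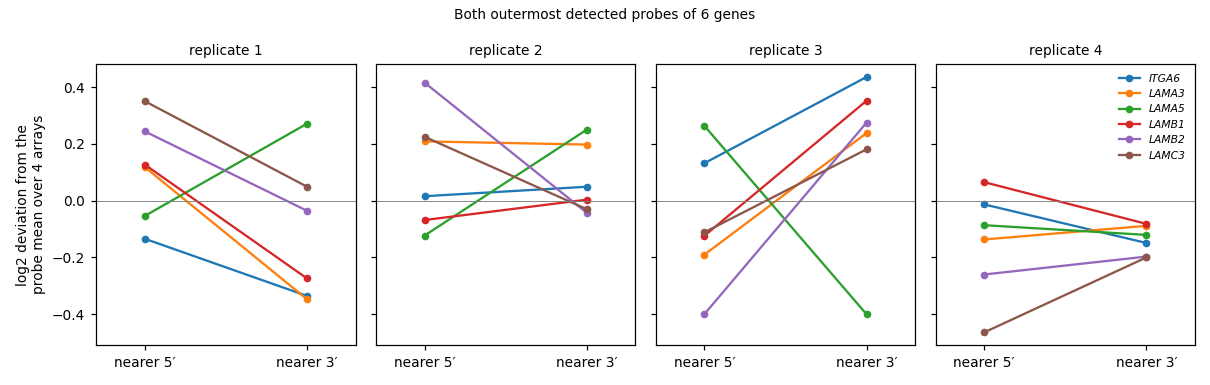
Log2 deviation from the mean of the probe over 4 arrays (vertical axis) for the outermost detected probes of 6 genes, with the probe nearer the 5′ end on the left and that nearer the 3′ end on the right of each panel, and a panel for each replicate. On replicate 3 the lines rise in 5 of 6 genes and fall in LAMA5, where the 3′ probe deviates by -0.66 relative to the 5′ probe.

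The genes with which integrins and laminins work were counted in the same way. Their counts may be read against 52.5% of all gene names and 70.9% of protein-coding symbols, and no difference was tested. Of 22 adaptors that link integrins to actin and signalling, 21 were detected (95.5%), among them TLN1, VCL, ILK and PTK2. The exception was PARVG, the parvin of blood cells, which was well above background on 2 arrays. Of 4 hemidesmosome genes PLEC, DST and CD151 were detected, and COL17A1, the transmembrane collagen of hemidesmosomes, was at background on all arrays with signals of 5.37 to 14.4. Thus ITGA6, ITGB4, LAMA3 and LAMB3 were detected together with PLEC, DST and CD151, and without COL17A1. Of 13 partners of laminin in basement membranes 11 were detected (84.6%). NID1, which joins laminin to collagen IV, was at background on all arrays with signals of -8.71 to 1.06, and COL4A3 was well above background on 3 arrays. NID2, the relative of NID1, was detected through 1 of its 2 probes. More than 1.4-fold was spanned by 8 of the 21 detected adaptors (38.1%) and 7 of the 11 partners (63.6%), against 46.4% of all detected genes. With detected probes alone these counts were 5 (23.8%) and 7 (63.6%), against 40.1% of all detected genes in that setting.

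Of 12 genes for ligands of integrins outside basement membranes, CDH1, VTN and SPP1 were detected (25%, against 52.5% of all gene names and 70.9% of protein-coding symbols, a difference that was not tested), whereas FN1, TNC, ICAM1, ICAM2, VCAM1, MADCAM1, FGA, FGB and FGG were well above background on no array. FN1, the fibronectin gene, was read by 1 probe, with signals of 4.58 to 16.0. VTN, the gene of vitronectin, gave signals of 67.8 to 106, and CDH1, the ligand of αEβ7, gave 3109 to 5220. The fibronectin receptor subunits ITGA5 and ITGB1 were hence detected where FN1 was not, and the vitronectin receptor subunits ITGAV and ITGB5 where VTN was. A signal at background does not show that a transcript is absent, since the first percentile of signals well above background was 21.8 to 23.5 on these arrays.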

How the data were processed

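Total RNA of 4 bafilomycin A1 cultures was labelled with Cy3 by the authors and hybridised to Agilent arrays. The authors deposited the scanner output of Agilent Feature Extraction 10.7.3.1 (per the submitters' processing notes): background-subtracted and processed signals as linear intensity values, not normalized between arrays, plus flags and a p-value per spot. The p-values were not used. Probe positions follow the file header (hg19:GRCh37:Feb2009).

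The study's methods give log2 transformation of the background-subtracted signal, subtraction of the array median, and medians over the probes of each gene and over replicates. Here these steps were followed with additions of this work: control and outlying spots were left out, spots of a probe averaged, log2 taken, the array median over non-control probes with a signal above 0 subtracted, and a gene set to the median of its probes. Signals at or below 0 were left out on that array. A probe was well above background where more than 50% of its spots were. In place of medians, means with SDs over 4 arrays are given; with 1 condition there is no test. Dixon's ratio (critical value 0.829) marked arrays apart. The statistics were tested on simulated data. All 35 genes were named; they, and the lists of partners and markers, were chosen with earlier results of these data known. The files held no columns of other samples. The number of arrays limits the precision.

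Alternatives were the processed signal minus its 75th percentile, normexp (offset 50) with quantile normalization, other detection flags and rules, other choices of probes, outlying spots kept, medians in place of means over arrays, and the removal of each array in turn. Restriction to RefSeq mRNA probes, and the outlying-spot and probe settings for marker, partner and 10-spot values, were chosen after seeing the data. Python 3.11.15, numpy 2.4.6, pandas 2.3.3, scipy 1.17.1, matplotlib 3.10.9, R 4.3.3 and limma 3.58.1 were used.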

Additional observations from a re-analysis of the deposited data

Results flagged for a closer look

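In 2 of the 28 detected genes 1 array was marked as apart from the other 3, by the gap to its nearest neighbour over the whole range. This ratio was compared with Dixon's critical value for 4 values, and it does not measure the size of the gap itself. Chance marks about 5% of genes, and 8.48% of all detected genes were marked. In ITGB4 replicate 3 was apart, with a ratio of 0.883, at a level of 8.42 against 8.16 to 8.19. The whole span of ITGB4 was only 1.20-fold (SD 0.12). In LAMB1 replicate 4 was apart, with a ratio of 0.888, at a level of 4.54 against 2.30 to 2.55. A LAMB1 probe at background had a log2 value on replicates 1 to 3 only. With both detected probes alone the SD was 0.08, and with the RefSeq mRNA probe alone it was 0.26.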

How the results depend on the processing

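Detection counts stayed within 1.5-fold. Under the other rules and probe choices 25 to 30 of the 35 genes were detected. These held 8 of 9 epithelial subunits under each, 4 to 7 of 9 leukocyte and platelet subunits, and 8 or 9 of 10 laminins. The count of 25 arose where most probes of a gene had to be detected. Over all gene names the share was then 45.2%, against 52.5% in the main setting. For the other rules this share was not computed. Which array was highest depended on the probes and spots: it changed with detected probes alone in LAMC3 (from replicate 3 to 1) and ITGAX (from 2 to 3), and with outlying spots kept in ITGB2 (from 3 to 1). The levels of ITGAM (-0.61) and ITGAX (-1.49) lay above the array median after normexp and quantile normalization, at 0.18 and 0.08. There the median is over all non-control probes, so a level of 0 is another reference point than in the main setting. With detected probes alone ITGAX lay at 0.28 and LAMA4 at 0.96 in place of -2.76. The median SD of 0.19 was 0.16 with the processed signal, 0.12 after normexp and quantile normalization, 0.21 with RefSeq mRNA probes and 0.22 without the detection filter, and leaving out 1 array gave 0.16 (without replicate 3) to 0.20. The count of 11 genes spanning more than 1.4-fold was 7, 5, 12 and 17 under these settings in turn. With 1 array left out it was 4 (without replicate 3) to 11. The 12 were counted among 27 detected genes, and the 17 include genes that were not detected. For both of these settings no share over all genes was computed. Over all detected genes the median SD was 0.18 with the processed signal, 0.11 after normexp and quantile normalization and 0.15 without replicate 3. The share of all detected genes spanning more than 1.4-fold was 39.1%, 15.5% and 21.9% in the same order, against 46.4% in the main setting. The cause of these shifts was not tested. Levels of all 28 genes moved by more than 1 SD with the processed signal, where a level of 0 stands for the 75th percentile and 8 genes changed sign, and of 24 after quantile normalization, while the median over arrays moved none (0 genes). Signals near background and 4 arrays limit the dim genes, such as ITGAX and LAMA4. No paired analysis was possible because the replicate numbers are shared only with the untreated samples, which were not analysed here.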
